A study of Mus musculus with 4 samples.

Results

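The cells described here are conventional CD4 T cells in which at least 3 UMIs (unique molecular identifiers, each counting 1 captured mRNA molecule) of Il7r were read. Il7r encodes the alpha chain of the interleukin-7 receptor. Members were chosen by their own Il7r count and by other counts in the same cell: at least 500 genes, at most 10% mitochondrial UMIs, CD45.1 over CD45.2 antibody counts (each plus 1) above 2.2 on the log2 scale, more Cd4 than Cd8a plus Cd8b1 UMIs, no Foxp3 and no Ccr9 UMI. There were 836 of them, which is 7.61% of the 10989 conventional CD4 cells under the same rule and 2.31% of the 36140 barcodes past the cell filter. They were set against the 7651 conventional CD4 cells in which no Il7r UMI was read, called Il7r-null below. Those cells can include Il7r-expressing cells whose few transcripts were missed.

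All cells were donor T cells (PI-, H-2Kb+, TCRb+) sorted from spleens on day 8 of acute graft-versus-host disease. BALB/c recipients had received 900 cGy and then T cell-depleted bone marrow of C57BL/6 mice (CD45.1+ CD45.2+) with Treg cells (CD4+ Foxp3-GFP+ CD25hi, from CD45.2+ mice). Conventional CD4+ and CD8+ T cells of wild-type CD45.1+ C57BL/6 mice followed 2 days later. The 4 libraries differed in the genotype of the Treg donors, which was CD226+/+ TIGIT+/+ (wild type), CD226-/- TIGIT+/+ (CD226 knockout), CD226+/+ TIGIT-/- (TIGIT knockout) or CD226-/- TIGIT-/- (double knockout). CD226 is an activating and TIGIT an inhibitory receptor for shared ligands, and the cells described here were wild type for both in every library. Each library was a pool of 3, and each genotype had 1 library, so no genotype has a replicate. Values by library always follow the order in which the genotypes are named in this paragraph.

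Interleukin-7 is made by stromal cells and holds naive and memory T cells alive between infections. Its receptor pairs the Il7r chain with the common gamma chain Il2rg and signals through Jak1, Jak3 and Stat5 to induce Bcl2, a survival protein, and feedback inhibitors such as Cish. Il7r is switched off in most T cells after strong activation and is retained or regained by cells that pass into memory.

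The sequences from which Il7r and 4 of the genes described below are transcribed are shown because the 3 Ifitm genes sit together on chromosome 7 and rose together, and because Cish is a target of the receptor. They run from 250 bases before to 30 bases after the start that RefSeq's promoter table uses on GRCm38.p6, 5′ to 3′ along the gene. That start need not be the outermost end of the gene. The windows of Ifitm1 and Ifitm2 lie wholly inside the annotated genes (140967429 to 140969827 and 140954837 to 140959686). Capitals mark matches, on either strand, to TTCNNNGAA (the core bound by STAT dimers) and a pair of GAAA separated by any 2 bases (part of the element bound by interferon regulatory factors). The third motif searched, the forkhead core GTAAACA, had no match in these windows. Of 32851 RefSeq windows of 280 bases, 7.83% held the first motif, 3.28% the second and 3.49% the third. Cish held 2 matches of the first motif, Ifitm3 held 1 of the first overlapping 1 of 2 of the second, Ifitm2 held 1 of the second, Il7r held 1 of the first, and Ifitm1 held none.
Ifitm1, chr7:140967826-140968105, plus strand: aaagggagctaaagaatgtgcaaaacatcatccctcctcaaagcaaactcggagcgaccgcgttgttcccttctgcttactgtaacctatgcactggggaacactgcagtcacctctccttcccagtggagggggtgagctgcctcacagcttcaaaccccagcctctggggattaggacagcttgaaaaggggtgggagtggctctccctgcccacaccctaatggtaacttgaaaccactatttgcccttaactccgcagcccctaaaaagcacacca
Ifitm2, chr7:140955932-140956211, minus strand: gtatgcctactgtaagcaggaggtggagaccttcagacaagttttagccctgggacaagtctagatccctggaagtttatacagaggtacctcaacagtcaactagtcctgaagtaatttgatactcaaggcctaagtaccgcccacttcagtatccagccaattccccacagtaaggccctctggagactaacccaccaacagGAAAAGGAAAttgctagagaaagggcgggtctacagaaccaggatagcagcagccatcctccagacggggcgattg
Ifitm3, chr7:141010715-141010994, minus strand: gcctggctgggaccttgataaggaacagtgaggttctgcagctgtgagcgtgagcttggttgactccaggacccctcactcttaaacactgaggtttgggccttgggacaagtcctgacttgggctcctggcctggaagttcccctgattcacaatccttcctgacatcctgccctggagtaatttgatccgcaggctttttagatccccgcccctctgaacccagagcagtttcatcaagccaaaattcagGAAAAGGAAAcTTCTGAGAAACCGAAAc
Cish, chr9:107296409-107296688, plus strand: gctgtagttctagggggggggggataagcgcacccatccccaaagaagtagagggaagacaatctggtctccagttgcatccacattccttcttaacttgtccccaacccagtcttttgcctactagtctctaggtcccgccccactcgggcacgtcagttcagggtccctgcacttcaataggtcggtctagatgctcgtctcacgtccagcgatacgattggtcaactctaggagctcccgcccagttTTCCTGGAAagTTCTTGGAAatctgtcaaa
Il7r, chr15:9529847-9530126, minus strand: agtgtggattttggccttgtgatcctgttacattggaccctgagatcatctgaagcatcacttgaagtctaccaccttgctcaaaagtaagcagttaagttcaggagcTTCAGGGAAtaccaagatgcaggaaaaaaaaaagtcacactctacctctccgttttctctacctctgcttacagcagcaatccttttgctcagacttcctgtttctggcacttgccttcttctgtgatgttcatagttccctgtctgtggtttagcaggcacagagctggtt

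The member cells held 1878199, 2697667, 1275842 and 1584152 UMIs in the 4 libraries, and the Il7r-null cells 16744261 to 18889619. Members were shallower, with a median of 7343, 6740.5, 6832 and 6363 UMIs against 9121.5, 8285, 7008 and 8055.5, although a shallow cell is less likely to show 3 UMIs of any gene. Their median share of mitochondrial UMIs was 4.02% to 4.29% against 3.64% to 3.74%. No doublet caller was applied, and 55 members (6.58%) had over 20000 UMIs, against 298 Il7r-null cells (3.89%). By library these were 25 of 167, 16 of 318, 6 of 153 and 8 of 198 members, most in the wild-type library. Among Il7r-null cells they were 117 of 1812, 69 of 1911, 48 of 2048 and 64 of 1880. How much such deep barcodes weigh on the wild-type member sums was not tested. At least 1 UMI of a B cell, myeloid, neutrophil or erythroid marker was read in 36.0% to 49.5% of members and 46.0% to 55.8% of Il7r-null cells. No barcode was shared between members of different libraries, and 1 member's barcode also occurred among the filtered cells of another library. As a background for Il7r, 26.2% of 309 barcodes with macrophage transcripts held an Il7r UMI and 5.50% held 3, at a median of 12078 UMIs, against 30.4% and 7.61% of conventional CD4 cells at 7882 UMIs. Those barcodes also held a median of 25 Cd3 UMIs, so they carried T cell RNA and are no clean negative.

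Il7r-high cells were 6.65% of conventional CD4 cells with wild-type Treg donors (167 of 2511, 95% Clopper-Pearson interval 5.71 to 7.70). They were 10.7% with CD226-knockout donors (318 of 2961, 9.65 to 11.9), 5.37% with TIGIT-knockout donors (153 of 2847, 4.57 to 6.27) and 7.42% with double-knockout donors (198 of 2670, 6.45 to 8.48). Intervals cover counting error only, and no test between genotypes is possible with 1 library each. The share was higher in the CD226-null library of both pairs, by a ratio of 1.61 with TIGIT present (95% interval 1.33 to 1.96) and 1.38 with TIGIT absent (1.11 to 1.72). Both ratios stayed above 1 when every cell was thinned to 2000 UMIs and cells with at least 1 Il7r UMI were counted. The thinned shares were 10.4%, 15.6%, 11.6% and 13.8%, with ratios of 1.49 and 1.19. The ratio with TIGIT absent had an interval that includes 1 at Il7r of at least 5 (1.22, 0.82 to 1.81) and in cells of 5000 to 12000 UMIs (1.31, 0.98 to 1.76). The TIGIT ratios were 0.81 with CD226 present (0.64 to 1.01) and 0.69 with CD226 absent (0.58 to 0.83), and the first turned to 1.11 after thinning. TIGIT status followed the sequencing lane, and the effects of the 2 cannot be told apart. The CD8 cells of the same libraries had the same order of shares, 4.08%, 6.204%, 3.40% and 4.43%, under the same rule with Cd8a plus Cd8b1 above Cd4.

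**Figure D1:**
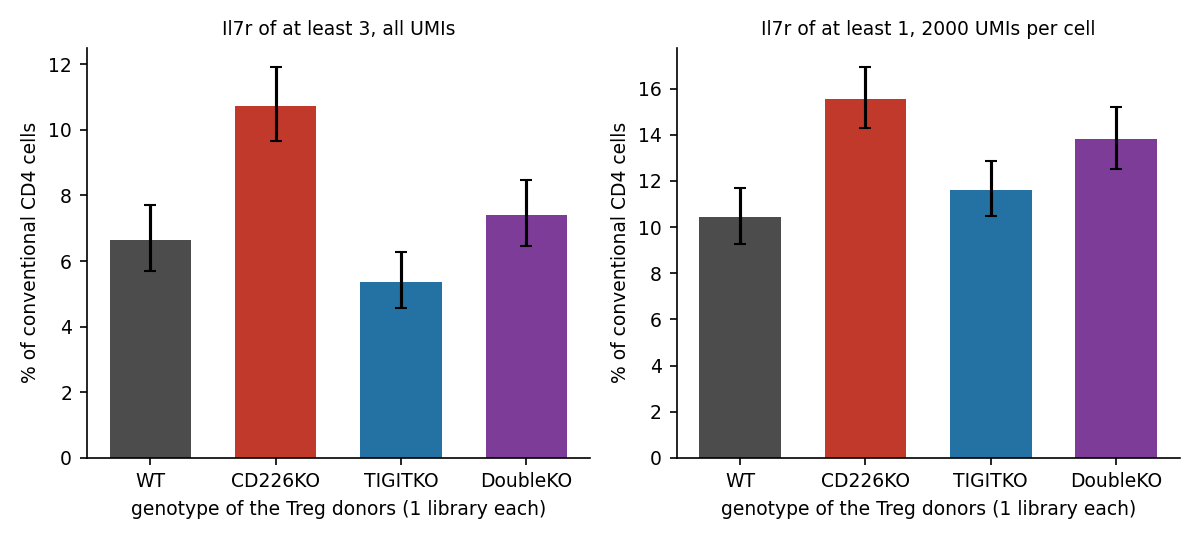
Share of conventional CD4 cells that were Il7r-high in each library (y axis, percent; bars with exact 95% Clopper-Pearson intervals, 1 library per genotype), at full depth on the left and after thinning to 2000 UMIs on the right. The CD226-knockout library was highest on both sides, at 10.7% and 15.6%, while the lowest was TIGIT knockout on the left and wild type on the right.

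Within the members, Il7r ran from 3 to 14 UMIs with a median of 4 in every library, or 4.74, 5.88, 5.76 and 5.68 per 10000 UMIs of the cell. Just inside the threshold were 369 cells with 3 Il7r UMIs, and just outside 772 cells with 2. These values chose the members and are given as a description.

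Across the 10272 genes that passed the low-count filter, 1098 were higher in the members and 1148 lower, in the UMI sums of both kinds of cell from the same 4 libraries (edgeR quasi-likelihood test blocked by library, n = 4, with a threshold of 0.05 on p-values adjusted by Benjamini and Hochberg). That is 10.7% and 11.2% of the genes tested, and the background against which each gene list below is read. In each library the 2 kinds of cell came from the same animals, so p-values measure the spread of the difference over 4 pools that also differ in Treg genotype. Without the CD226-knockout library, which holds the most members, 638 were higher and 667 lower. The median log2 fold change over all genes was 0.0044. In such sums, fewer expressing cells and less RNA per cell cannot be told apart. The 15 genes that rose most and the 15 that fell most, among those with the same sign in all libraries, are reported in the following paragraphs. For 29 of these 30 genes the 4 member values and the 4 Il7r-null values did not overlap, as for 20.3% of all genes tested, but the 30 were picked for large differences of 1 sign and the count says nothing more about them.

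Bcl2, which protects cells from apoptosis (chromosome 1, 106538176 to 106714290 on GRCm38.p6), stood at 163, 208, 164 and 236 counts per 1000000 UMIs (CPM) in the members and at 84.8, 80.5, 79.2 and 102 CPM in the Il7r-null cells. Every member value lay above every Il7r-null value, and the log2 fold change was 1.18 (SD of the 4 library ratios 0.19, adjusted p = 1.4e-21). At a fixed 2000 UMIs per cell, 28.8% to 36.4% of members and 15.01% to 18.5% of Il7r-null cells held a Bcl2 UMI. Satb1, a chromatin organiser of T cells, rose by 1.09, from 89.4 ± 16.8 to 185 ± 14.6 CPM (SD, n = 4). Pdcd4, an inhibitor of translation initiation, rose by 1.13 on the same log2 scale, from 51.8 to 112 CPM on average. Cd7, a surface protein of resting T cells and NK cells, stood at 95.8, 138, 109 and 133 CPM in the members and at 40.0, 41.1, 51.0 and 32.1 CPM in the Il7r-null cells. Its log2 fold change was 1.59 (SD 0.43).

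The interferon-induced transmembrane genes Ifitm1 and Ifitm2, which hinder viral entry, were the most abundant of the 15 genes that rose most. Ifitm1 stood at 3194, 3518, 3464 and 3702 CPM in the members and at 1225, 1010, 1606 and 1179 CPM in the Il7r-null cells. The groups were far apart, with a log2 fold change of 1.51 (SD 0.30, adjusted p = 5.6e-30), and after thinning 63.6% to 65.3% of members held an Ifitm1 UMI against 31.0% to 43.5%. Ifitm2 rose by 1.06 and Ifitm3 by 0.72 on the log2 scale. These are similar neighbouring genes, so reads shared between them are uncertain. Whether the motifs in the windows shown above have a part in these rises was not tested. In the interferon response list, 12 of 18 tested genes rose and 0 fell, with a median log2 fold change of 0.34. The median turned to -0.35 among cells without a cycle UMI. Beside the 3 Ifitm genes these include the guanylate-binding protein Gbp2 (0.43) and Ifi27l2a (0.21), which turned to -1.07 in those cells and to -0.0089 at Il7r of at least 5.

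The remaining genes of the 15 were lower in abundance. Dapl1, on chromosome 2, rose most, with a log2 fold change of 2.97 (SD 1.20). Its values were 11.2, 59.3, 10.97 and 49.2 CPM in the members and 3.44, 5.56, 4.24 and 3.32 CPM in the Il7r-null cells, so that the members of the CD226-knockout and double-knockout libraries stood well above the members of the others. Actn2 (an actin cross-linker, 1.83), Sh3bp5 (1.69), the long noncoding RNA Gm17745 (1.63), Rasl11a (1.47), Qrfp (1.36), Hs3st3b1 (a heparan sulfate sulfotransferase, 1.24), Crebrf (1.08) and Lpar6 (a lysophosphatidic acid receptor, 1.01) rose from means of 5.91 to 13.6 CPM to means of 20.7 to 36.3 CPM.

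**Figure D2:**
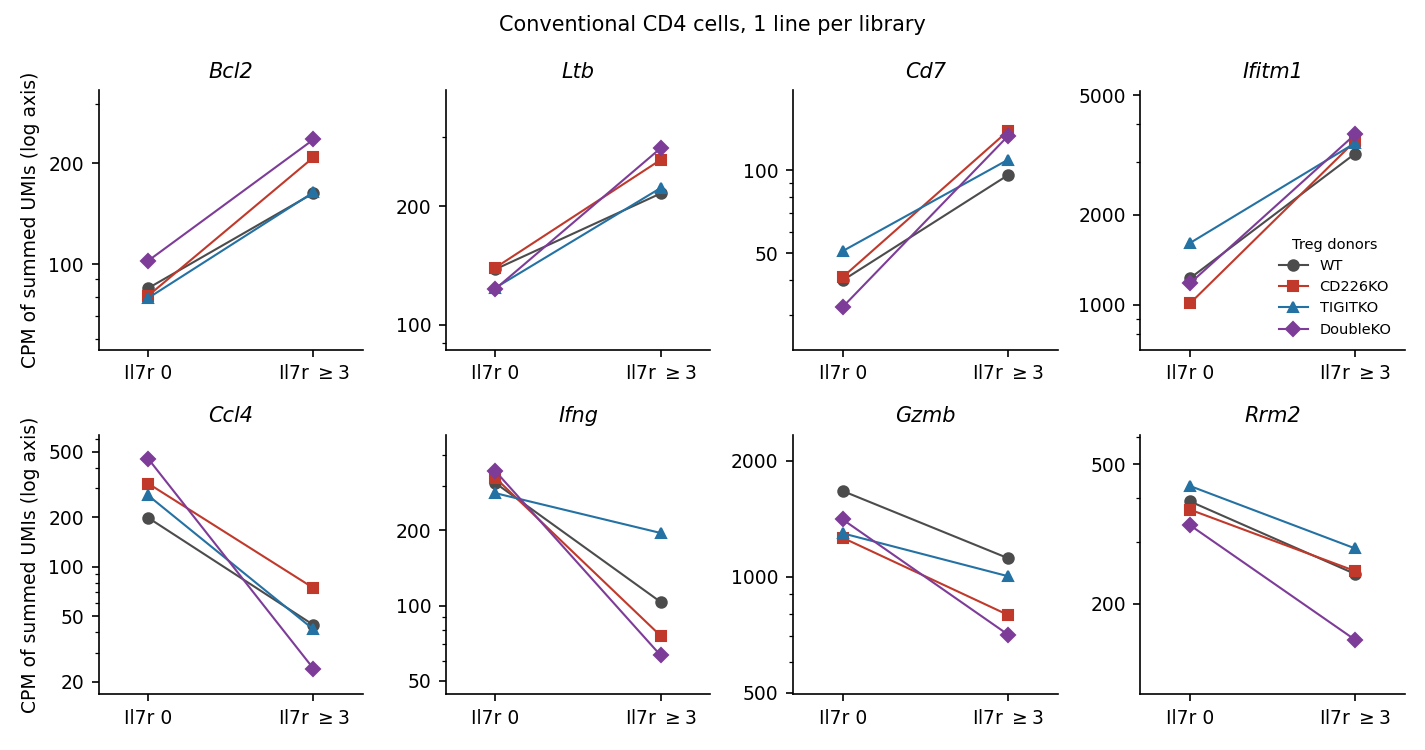
Level of 8 genes in Il7r-null and Il7r-high conventional CD4 cells (y axis, CPM of summed UMIs on a log axis), with 1 line per library. Bcl2, Ltb, Cd7 and Ifitm1 rose and Ccl4, Ifng, Gzmb and Rrm2 fell in each of the 4 libraries.

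Of the 15 genes that fell most, several encode secreted proteins. Ccl4, a chemokine of activated T cells, was at 44.2, 74.1, 41.5 and 24.0 CPM in the members and at 198, 320, 271 and 452 CPM in the Il7r-null cells. Its log2 fold change was -2.61 (SD 0.98, adjusted p = 3.8e-24), and its neighbour Ccl3 had one of -2.73. The annotated Ccl3 and Ccl4 models overlap on chromosome 11, from 83648624 to 83649378 on GRCm38.p6, so counts in that stretch are uncertain. Both are made by few cells: after thinning, 2.40% to 3.46% of members held a Ccl4 UMI against 5.53% to 11.4% of Il7r-null cells. Of the Ccl4 UMIs in the members of the library richest in them, 87.0% came from 5 cells, and for Ccl3 the share was 84.4%. Ifng, the main Th1 cytokine, stood at 103, 75.6, 195 and 63.1 CPM against 309, 324, 282 and 345 CPM, a log2 fold change of -1.60 (SD 0.83). The TIGIT-knockout library had the highest member value and the lowest Il7r-null value. Of the Ifng UMIs in the members of that library, 72.3% came from 5 cells. Il21, a cytokine that helps B cells, fell by 1.70 on the log2 scale, and the chemokine Ccl1 by 1.52.

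Several regulators and killer-cell genes also fell. Myb, a transcription factor of progenitor cells, fell by 1.20, the transcriptional repressor Zbtb32 by 1.04, the costimulatory receptor Tnfrsf9 (4-1BB) by 0.96 and the pore-forming protein Prf1 by 0.93. Litaf fell by 1.07, Aunip by 1.05, Chchd10 by 1.03 and Lmo4 by 0.91. The other 2 genes of the 15 rest on few cells. S100a9, a neutrophil protein, had a log2 fold change of -4.36, but its groups overlapped. A single Il7r-null barcode of the double-knockout library held 1509 of that group's 1561 UMIs, and 1 of the CD226-knockout library held 515 of 546. Gcg, the glucagon gene, fell by 2.41 from a mean of 22.9 CPM, and its UMIs came from 27 to 40 Il7r-null cells and 1 to 3 members a library.

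Of the genes named as markers of these cells, Klf2 and S1pr1 rose a little and Slamf6 did not pass the test. Klf2, a transcription factor of quiescence and egress, stood at 661, 714, 698 and 741 CPM in the members and at 627, 670, 620 and 696 CPM in the Il7r-null cells. The ranges overlapped, with a log2 fold change of 0.13 (edgeR quasi-likelihood adjusted p = 0.0058). S1pr1, the egress receptor that Klf2 induces, stood at 97.6 ± 9.14 against 81.3 ± 3.44 CPM (SD, n = 4; log2 fold change 0.29). Both calls were lost in cells of 5000 to 12000 UMIs and after thinning. Slamf6, a surface receptor of less differentiated T cells, had 122 ± 19.99 against 115 ± 18.4 CPM (log2 fold change 0.10, edgeR quasi-likelihood adjusted p = 0.29). Tcf7 and Lef1, transcription factors of naive and central memory cells, had log2 fold changes of 0.03 and 0.16 and did not pass the test. Ccr7, a chemokine receptor that brings naive and central memory cells into lymph nodes, passed it at a very low level, with a mean of 6.11 CPM in the members. The call for Ccr7 was lost without the CD226-knockout library and without the double-knockout library (edgeR quasi-likelihood adjusted p = 0.11 and 0.54). Cd27, a costimulatory receptor of memory cells, fell by 0.31. Of the 3 markers beside Il7r, Klf2 and S1pr1 thus passed by small amounts and Slamf6 did not, and the cells are called Il7r-high after the rule that chose them.

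Of the IL-7 receptor pathway, 9 of 17 tested genes rose and 1 fell, with a median log2 fold change of 0.19 (SD of the library medians 0.02). Beside Bcl2, the feedback inhibitor Cish rose by 0.59, from 73.7, 48.8, 77.8 and 60.8 CPM to 94.2, 78.6, 123 and 92.2 CPM, with a higher value in the members of all 4 libraries. Its window above holds 2 STAT-type motifs, whose part in this rise was not tested. The other inhibitor Socs2 rose by 0.67, the survival kinase Pim2 by 0.74 and the receptor partner Il2rg by 0.34. Bcl2l11, the death-promoting partner of Bcl2 also known as Bim, rose by 0.89, from 16.4 to 30.3 CPM. The kinase Akt1 was the gene that fell, by 0.28. Among cells without a cycle UMI, Cish (0.55) and Il2rg (0.35) did not pass the test (edgeR quasi-likelihood adjusted p = 0.088 and 0.14). Pim2 (1.06) and Bcl2l11 (1.34) passed it there. Of the receptors for other cytokines that share the gamma chain, 1 of 6 rose and 0 fell.

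Quiescence and memory transcription factors rose in 10 and fell in 2 of 21 cases (median 0.16). Beside Satb1 the rising genes include the antiproliferative Btg1 (0.87) and Btg2 (0.74), Klf3 (0.56) and Foxp1 (0.50), while Myb and Eomes (-0.57) fell. Among cells without a cycle UMI, Btg1 (0.34), Btg2 (0.28), Klf3 (0.19) and Foxp1 (0.27) did not pass the test (edgeR quasi-likelihood adjusted p = 0.076 to 0.81). Btg1 stood at 176, 185, 176 and 207 CPM in the members against 97.0, 115, 95.8 and 99.7 CPM, with no overlap.

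Genes for positioning split by receptor. Of the egress and lymph node list 6 of 10 rose and 1 fell, and of the inflammatory homing list 6 of 13 rose and 2 fell. Gpr183, an oxysterol receptor that guides cells within the spleen, rose by 0.73 but was lower in members among cells without a cycle UMI (-0.55). Ccr2, a receptor for monocyte chemokines, stood at 211, 221, 252 and 213 CPM in the members and at 136, 112, 108 and 124 CPM in the Il7r-null cells, a log2 fold change of 0.92 (SD 0.25). The integrin chains Itgb1 (0.63) and Itgb7 (0.41) rose and their partner Itga4 fell by 0.47. Cxcr6 rose by 0.29 and Cxcr3 did not pass the test at -0.16. Memory surface receptors rose in 8 and fell in 3 of 17 cases. Ltb, the lymphotoxin beta chain, rose from 132 ± 8.79 to 245 ± 31.4 CPM (SD, n = 4; 0.92), and the interleukin-18 receptor Il18r1 rose by 0.50.

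Effector and proliferation lists moved the other way. Of the Th1 list 9 of 17 genes fell and 1 rose (median -0.26). The 1 that rose was Csf2, whose direction turned without the wild-type library and in the depth window. Ccl5 fell by 0.88 and Il12rb2 by 0.69. Of 13 inhibitory receptor and exhaustion genes 6 fell (median -0.50), among them Havcr2 (-0.73), Lag3 (-0.66), Tox (-0.62), Ctla4 (-0.52) and Pdcd1 (-0.50). The gene of that list that rose was Nt5e (CD73, which makes adenosine), by 1.63 from 4.66 to 14.4 CPM. Activation regulators fell in 7 and rose in 3 of 15 cases, including Irf8 (-0.74), Tnfrsf4 (-0.52) and Batf (-0.30). Of 25 cell cycle genes 22 fell and 1 rose (median -0.33). They include the DNA synthesis genes Rrm2 (-0.69), Tk1 (-0.66), Tyms (-0.51) and Pcna (-0.50) and the mitosis genes Cdk1 (-0.37) and Mki67 (-0.12). Cenpf, a kinetochore gene, was the 1 that rose, by 0.21, a direction lost after thinning. Glycolysis genes fell in 8 and rose in 1 of 14 cases, with Tpi1 at -0.48, Ldha at -0.32 and Gpi1 at 0.13, and the amino acid transporter Slc7a5 at -0.68. Ribosome biogenesis genes fell in 7 of 14 cases, while 15 of 22 ribosomal protein genes rose and 1 fell, by small amounts (median 0.08). None of 11 immediate early genes passed the test in either direction.

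Cytotoxicity genes divided, 5 rising and 5 falling of 13. Granzyme B (Gzmb) stood at 1118, 796, 1003 and 708 CPM in the members and at 1670, 1263, 1297 and 1408 CPM in the Il7r-null cells, all member values below all others (log2 fold change -0.63). Gzmk (-0.72), the granzyme inhibitor Serpinb9 (-0.48) and Prf1 fell with it. Some NK lectin receptors rose. Klrd1 (CD94) stood at 277, 308, 214 and 320 CPM against 159, 175, 129 and 153 CPM (0.88). Klrk1 (NKG2D) rose by 0.85, its relative Klrc1 by 0.59 and the cathepsin Ctsw by 0.63. Klrg1, another lectin-like receptor, did not pass the test (10.7 against 12.3 CPM, -0.16). Among cells without a cycle UMI, Klrk1 did not pass it either (edgeR quasi-likelihood adjusted p = 0.13). Gzma was called higher at 0.20 but turned with a stricter Il7r threshold. Gata3, a factor of Th2 and innate-like cells, rose by 0.48.

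Markers of other cell types were examined in both groups. Of the gamma-delta, NKT and MAIT list, the T cell receptor gamma constant genes Tcrg-C1, Tcrg-C2 and Tcrg-C4 rose by 1.92, 2.56 and 2.61. Trdc, the delta constant gene, did not pass the test (1.34 against 1.77 CPM). At Il7r of at least 3 per 10000 UMIs it was higher, by 1.33 (edgeR quasi-likelihood adjusted p = 0.0045). Trdv4 and Zbtb16 were at 0 in the members. In Il7r-null cells they averaged 0 and 0.056 CPM, so these zeros do not set the groups apart. Tcrg-C1 reached 12.8, 15.9, 11.8 and 13.3 CPM in the members against 3.39, 4.61, 5.49 and 1.396 CPM, and after thinning 1.57% to 2.99% of members held a UMI of it. The summed level of that list was 24.0 to 41.5 CPM in members and 3.90 to 12.1 CPM in Il7r-null cells. Macrophage markers summed to 12.5 to 35.7 against 26.0 to 41.8 CPM, neutrophil markers to 2.13 to 6.31 against 3.23 to 189, erythroid markers to 8.62 to 38.6 against 19.7 to 63.7, B and plasma cell markers to 47.8 to 79.5 against 71.1 to 89.1, and NK markers to 3.92 to 10.1 against 6.51 to 12.9 CPM. Innate lymphoid markers summed to 249 to 321 against 172 to 229 CPM, with 2 of 3 tested genes higher (Gata3 among them) and 0 lower. Of the 5 NK markers, Klra8 and Klra4 were at 0 in the members and averaged 0 and 0.029 CPM in Il7r-null cells. The part of other cell types in the results was not tested beyond leaving out every cell with a B cell, myeloid, neutrophil or erythroid UMI. That alternative was chosen after the data were seen and gave 835 higher and 798 lower genes.

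Bcl2 and Ifitm1 rose with each step of Il7r, but not every changed gene did. Both were already known to differ between the cells with 0 and with at least 3 Il7r UMIs. Bcl2 averaged 86.7, 126, 142, 187, 193 and 202 CPM in cells with 0, 1, 2, 3, 4 and at least 5 Il7r UMIs, which numbered 7651, 1730, 772, 369, 210 and 257. Ifitm1 averaged 1255, 2172, 2526, 3167, 3343 and 3984 CPM over the same steps. Ccl4 averaged 310, 210, 104, 26.6, 61.2 and 57.0 CPM, with large scatter between libraries from 3 UMIs on. Cish averaged 65.3, 87.5, 87.2, 107, 99.1 and 80.6 CPM, highest at 3 UMIs. Klf2 moved little, from 653 to 731 CPM, and Tcf7 showed no order. A cell's Il7r count depends on its depth, and median depth fell from 8056 UMIs at 0 to 6832 at 5 or more.

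**Figure D3:**
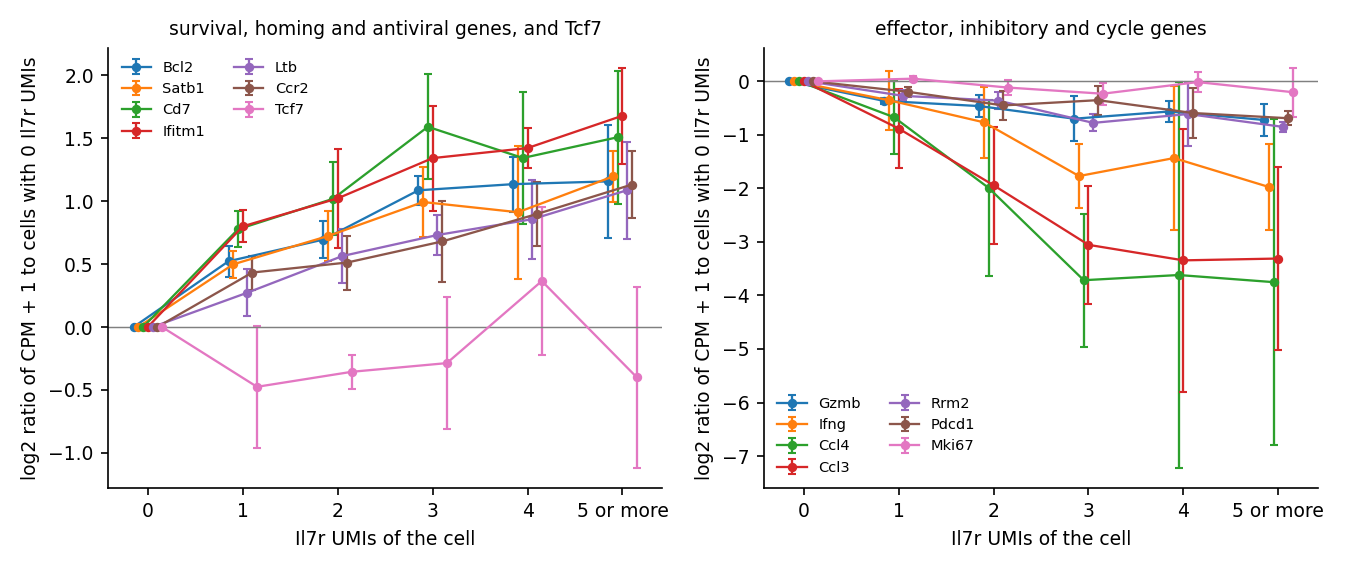
Log2 ratio of CPM plus 1 to the cells with 0 Il7r UMIs (y axis) by the number of Il7r UMIs in a cell (x axis), mean and SD over 4 libraries. Bcl2, Satb1, Cd7, Ifitm1, Ltb and Ccr2 lay above 0 at every step and Ccl4, Ccl3, Ifng, Gzmb, Rrm2 and Pdcd1 below it, while Tcf7 and Mki67 stayed near it or crossed it.

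Most members held cycle gene UMIs, and the comparison changed in the others. At 2000 UMIs per cell, 58.6% to 74.5% of members and 73.6% to 79.4% of Il7r-null cells held a UMI of at least 1 of 8 cycle genes (Mki67, Top2a, Cdk1, Ccna2, Ccnb1, Birc5, Rrm2 and Tyms). At full depth 165 members (19.7%) and 964 Il7r-null cells (12.6%) had none. By library these members were 30, 73, 22 and 40, so low values in them, such as those of Tcf7 and Ccl4, rest on few UMIs. Ccl4 stood at 44.8, 13.8, 0 and 0 CPM in these members. Among these cells without a cycle UMI, whose median depths were 4762 and 4576.5 UMIs, Bcl2 (log2 fold change 1.36), Ifitm1 (1.76), Cd7 (1.34) and Dapl1 (2.76) were higher in the members as before, and Ccl4 (-5.15), Ifng (-1.96), Gzmb (-0.78) and Pdcd1 (-0.83) lower. Tcf7, Slamf6, Id3 and Ifi27l2a were lower in the members there. Tcf7 stood at 72.7, 66.4, 21.2 and 40.9 CPM in members without a cycle UMI and at 172, 148, 138 and 134 CPM in such Il7r-null cells. The groups did not overlap, with a log2 fold change of -1.36 (edgeR quasi-likelihood adjusted p = 1.3e-06). Slamf6 stood at 145, 158, 127 and 194 against 353, 403, 302 and 304 CPM (-1.10), and Id3, an inhibitor of E proteins, averaged 41.8 against 137 CPM (-1.51). Ifi27l2a averaged 1481 against 3115 CPM (-1.07). In cells with a cycle UMI all 4 genes had higher means in the members, but Tcf7 was not higher in every library. Tcf7 stood there at 12.95, 27.8, 16.9 and 36.0 CPM in members and at 18.3, 20.1, 17.75 and 16.2 CPM in Il7r-null cells. It was thus lower in the members of the wild-type and TIGIT-knockout libraries. The Il7r-null cells without a cycle UMI had the highest mean levels of Tcf7, Slamf6, Id3 and Ifi27l2a of the 4 kinds of cell. Ltb did not pass the test among the cells without a cycle UMI (453 ± 43.5 against 468 ± 78.3 CPM; log2 fold change -0.01). Only 5880 genes could be tested in these cells, of which 95 were higher and 97 lower.

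**Figure D4:**
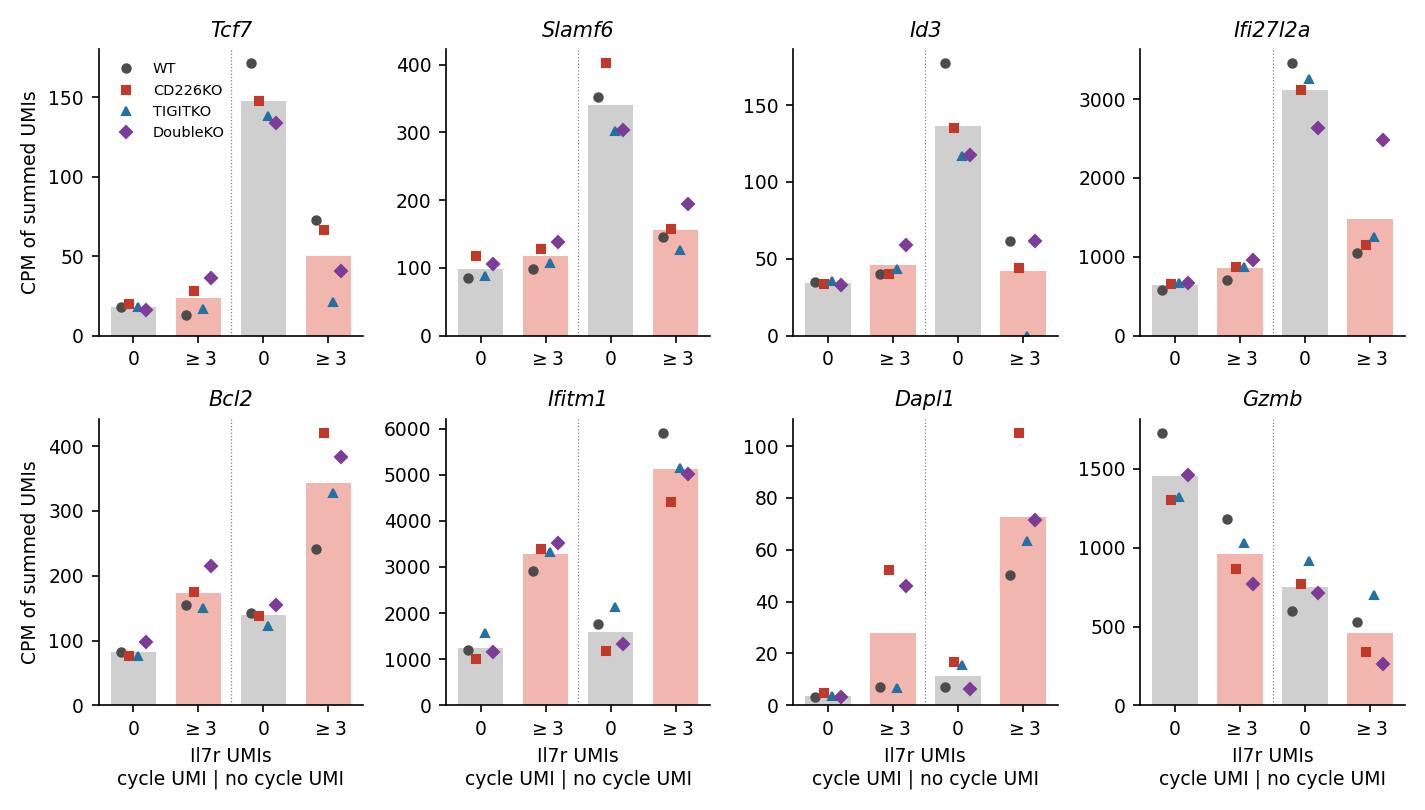
Level of 8 genes (y axis, CPM of summed UMIs; bars are means and points the 4 libraries) in Il7r-null (0) and Il7r-high (3 or more) conventional CD4 cells, with a cycle UMI to the left of the dotted line and without one to the right. Tcf7, Slamf6, Id3 and Ifi27l2a were highest in Il7r-null cells without a cycle UMI, and Bcl2, Ifitm1 and Dapl1 in members without one.

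Il7r-high CD8 cells of the same libraries (471 cells, against 8278 Il7r-null CD8 cells) were compared under the same rule. Of 10621 genes tested for a difference between the CD8 and the CD4 contrast, 130 passed (1.22%), 85 with a higher and 45 with a lower log2 difference in CD8 cells (edgeR quasi-likelihood interaction, adjusted p of at most 0.05). Of the 30 named genes 29 had the same sign in CD8 cells, and 11 passed the test of the difference. Of 191 listed genes that passed in CD4 cells, 175 had the same sign and 42 passed that test. The share with the same sign over all genes was not computed. The 30 were picked for extreme CD4 fold changes, which by itself favours smaller ratios in CD8 cells and calls for a difference. Ifitm1 had a smaller ratio in CD8 cells, with mean log2 ratios of 0.70 ± 0.23 against 1.48 ± 0.30 in CD4 cells (SD, n = 4), as did Bcl2 with 0.80 ± 0.09 against 1.13 ± 0.19. Klrk1 and Klrc1, which rose in CD4 members, had mean log2 ratios of -0.19 and -0.45 in CD8 cells, where their levels were higher throughout (a mean of 208 and 226 CPM in Il7r-null CD8 cells). Tcf7 had a mean log2 ratio of 1.62 in CD8 cells and differed from CD4 cells by 1.72 (edgeR quasi-likelihood adjusted p = 1.4e-08). Tcf7 was at 24.4 CPM in Il7r-high CD8 cells and 26.4 CPM in Il7r-high CD4 cells, while the Il7r-null cells stood at 7.49 and 26.6 CPM. Slamf6 had a mean log2 ratio of 0.50 in CD8 cells. Ccl3, Ccl4, Ccl1 and Ifng, which fell in CD4 members, had log2 differences of 1.995, 1.91, 2.75 and 1.21 between the contrasts. The calls for Ccl3, Ccl4 and Ccl1 were lost with DESeq2 (adjusted p = 0.83, 0.63 and 0.60), and that for Ccl3 also without the CD226-knockout library (1.06, edgeR quasi-likelihood adjusted p = 0.098). Klrk1 lost its call with DESeq2 as well (adjusted p = 0.070). Igfbp7 had mean log2 ratios of 1.41 ± 0.37 in CD8 and -0.23 ± 0.51 in CD4 cells, a difference whose call was lost in cells of 5000 to 12000 UMIs (edgeR quasi-likelihood adjusted p = 0.14). Ltb, Dapl1 and Gzmb had mean log2 ratios of 0.90, 2.31 and -0.76 in CD8 cells and 0.89, 2.35 and -0.65 in CD4 cells, with no call for the difference. The count of 130 rests on the CD226-knockout and the double-knockout library, since 59 and 50 passed without them, and 2 passed without the library block.

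**Figure D5:**
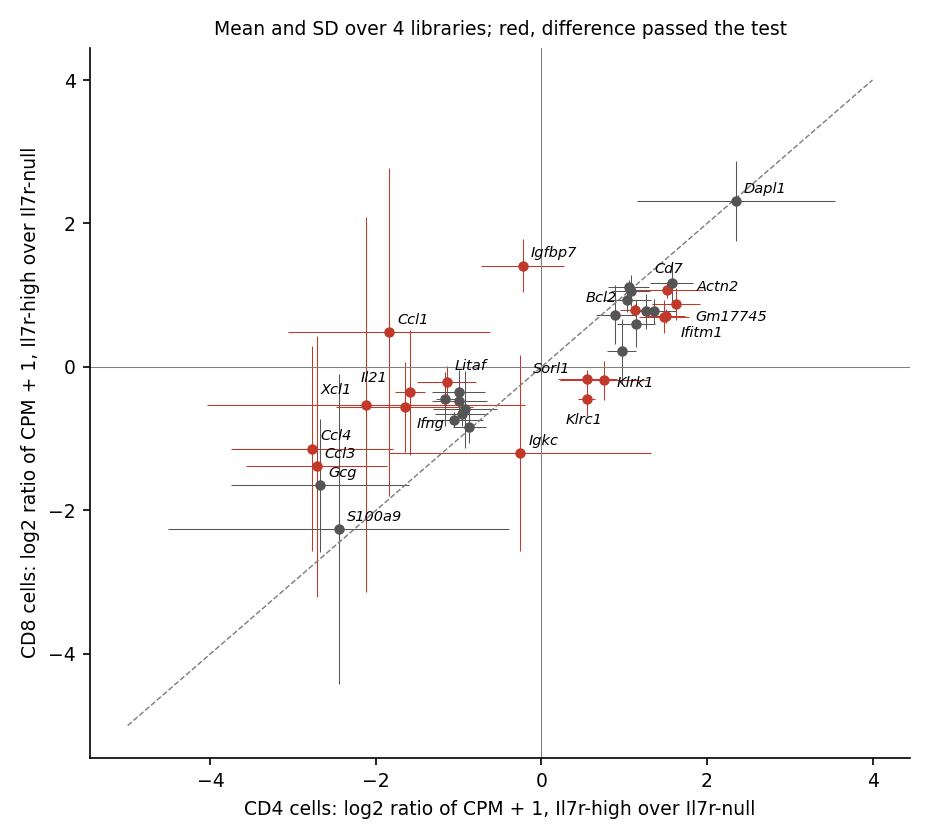
Mean log2 ratio of CPM plus 1, Il7r-high over Il7r-null, in CD8 (y axis) against CD4 conventional cells (x axis) for 36 named genes, with SD over 4 libraries and the line of equal ratios dashed. Of these, 17 shown in red passed the test of the difference, among them Ifitm1, Bcl2, Klrk1 and Klrc1 below the line and Ccl3, Ccl4 and Igfbp7 above it.

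Between Treg-donor genotypes the members were compared gene by gene, and with 1 library each these values are descriptions. Intervals of the gene ratios, here and in the next paragraph, cover the counting error of UMIs only. They treat UMIs as independent and leave out the spread between cells and between animals. Among the 2719 genes that averaged 50 CPM or more in the members, 1 was at least 1.5-fold higher (0.0368%) and 2 at least 1.5-fold lower (0.0736%) with CD226-null Treg donors in both TIGIT backgrounds, and 0 passed that fold in either direction with TIGIT-null donors (0%). After thinning to 2000 UMIs these counts were 10 and 9 for CD226 and 6 and 5 for TIGIT. The CD226 ratios had the same sign in both backgrounds for 58.8% of these genes and the TIGIT ratios for 48.1%. The gene that was higher was Klrk1, at 48.4, 76.4, 60.4 and 105 CPM, with CD226 ratios of 1.58 (95% interval 1.23 to 2.04) and 1.74 (1.32 to 2.31). Il7r-null cells had Klrk1 ratios of 0.93 and 0.92. The lower genes were Lgals7, a galectin, at 175, 88.6, 219 and 89.6 CPM (ratios 0.51 and 0.41), and the mitochondrial ferredoxin Fdx1 (0.69 and 0.66). Of the Lgals7 UMIs 43.0% in the richest library came from 5 cells, and Il7r-null cells had Lgals7 ratios of 0.81 and 0.47. Gzmb was lower in the members of both CD226-null libraries, with ratios of 0.71 (0.67 to 0.76) and 0.71 (0.65 to 0.76), against 0.76 and 1.09 in Il7r-null cells. The next genes by the rule were Gramd3, Pdcd4, Ypel3 and AY036118 on the higher side, with ratios of 1.39 to 1.85, and Eif4g1 and Magt1 on the lower, with ratios of 0.67 to 0.72.

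Further genes were looked at in the members by CD226 status, whether or not they had passed the Il7r contrast. Bcl2 had CD226 ratios of 1.28 (1.11 to 1.48) and 1.44 (1.21 to 1.71) in the members, and 0.95 and 1.29 in Il7r-null cells. Slamf6 had ratios of 1.28 and 1.34, against 1.39 and 1.18 in Il7r-null cells, and Ltb of 1.22 and 1.26, against 1.01 and 0.99. Cd7 had ratios of 1.44 (1.20 to 1.73) and 1.22 (0.98 to 1.52), against 1.03 and 0.64 in Il7r-null cells. Some other genes that rose with Il7r had ratios on both sides of 1 or near it. Among them were Satb1 (1.15 and 0.93), S1pr1 (0.96 and 1.25), Ifitm2 (0.9996 and 1.14) and Klf2 (1.08 and 1.06). Dapl1, chosen here after its values were seen, had ratios of 5.30 (3.35 to 8.81) and 4.49 (2.52 to 8.58) in the members and 1.48 and 0.82 in Il7r-null cells. A Dapl1 UMI was read in 9, 47, 8 and 24 members, and the 5 richest cells held 38.1% of the UMIs in the CD226-knockout library. The gap was mainly in cycling members, at 7.06, 52.2, 6.77 and 46.1 CPM, while members without a cycle UMI had 50.4, 105, 63.5 and 71.6 CPM. Tcf7 was at 18.6, 33.0, 17.2 and 36.6 CPM, with ratios of 1.77 (1.19 to 2.70) and 2.12 (1.28 to 3.64), against 1.11 and 0.97 in Il7r-null cells. For TIGIT loss the rule named Ssbp1, Rnf19b, Dmac1, Klrk1 and Ubap2l as higher, with ratios of 1.24 to 1.37, and Rnpep, Gzma, Acp5, Polr3c and Btbd1 as lower, with ratios of 0.50 to 0.77. Of these, Gzma had ratios of 0.50 (0.46 to 0.54) and 0.72 (0.67 to 0.77), at 1353, 851, 676 and 611 CPM, and 28.1% of its UMIs in the richest library came from 5 cells. Il7r-null cells had Gzma ratios of 0.87 and 0.67. TIGIT status cannot be told apart from the lane.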

How the data were processed

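The deposited unit was UMI counts per gene and barcode with counts of 2 barcoded antibodies, from a 10x 3′ v3 kit per the labels' protocols and Cell Ranger 3.1.0 with mm10 per the submitters' processing notes. UMIs were summed per library and kind of cell, leaving out genes used by the rule and mitochondrial genes, and tested by the quasi-likelihood method of edgeR 4.0.16 (R 4.3.3) after its default low-count filter and TMM scaling, with library as a block because both kinds of cell share a library. DESeq2 1.42.0 was an alternative. On simulated data the test recovered 100% of 100 genes changed 1.5-fold in the CD4 contrast, with 9 false calls among 10267 genes. In the CD8 minus CD4 contrast it recovered 100% of 100 genes changed 2-fold, with 8 false calls among 10613. The changed genes were drawn from the better expressed genes only, so recovery of genes at low levels was not measured. The simulated sums followed the count model that the test itself assumes, with spreads fitted by edgeR. Single cells and their choice by Il7r were not simulated, so the false calls do not measure those in the real data. Log2 ratios by library used a pseudocount of 1 CPM. Named genes were the 15 highest and 15 lowest log2 fold changes that passed, had the same sign in 4 libraries and a mean of at least 20 CPM in the higher group, and listed genes; 5 each way for the CD8 minus CD4 difference; and for genotypes 5 each way by the smaller of both ratios (at least 50 CPM, under 50% of UMIs in 5 cells). The cells, lists and tests were chosen with earlier results of these data known. Results for a few listed genes are not reported here. Alternatives were another tool, filters, depth, thresholds, thinning, cycle state and leaving out each library.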

Additional observations from a re-analysis of the deposited data

Results flagged for a closer look

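In 3 of 33 genes checked, 1 library stood apart from the other 3 in the log2 ratio of Il7r-high to Il7r-null cells, by the gap to the nearest library over the whole range. Chance gives this in about 1 of 20 groups of this size. Actn2 had a ratio of 2.06 in the wild-type library and 1.46 to 1.51 in the others. Hs3st3b1 had 1.49 in the double-knockout library and 1.01 to 1.04 in the others. Myb had -1.34 in the TIGIT-knockout library and -1.12 to -1.08 in the others. All had the same sign in the 4 libraries, as the rule that named them required.

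The Il7r contrast differed between CD8 and CD4 cells most, among the genes that passed, for 5 genes in each direction (edgeR quasi-likelihood interaction, Benjamini-Hochberg adjusted p between 4.3e-11 and 0.038). The log2 difference, CD8 minus CD4, was 3.07 for Xcl1, 2.75 for Ccl1, 1.995 for Ccl3, 1.91 for Ccl4 and 1.77 for Igfbp7. It was -2.33 for Igkc, -1.05 for Klrk1, -1.02 for Klrc1, -0.87 for Sorl1 and -0.86 for Actn2. Xcl1 and Igkc rest on few cells, with 83.7% and 86.0% of the UMIs of the richest group in 5 cells. With DESeq2, Igfbp7, Klrc1 and Sorl1 passed and the other 7 did not.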

How the results depend on the processing

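The 4 libraries differ in genotype, so leaving 1 out also leaves out a genotype. The 30 named genes were picked for large differences that passed with the same sign in all 4 libraries. That they kept direction without 1 library was thus largely fixed in advance. All 30 kept direction and call with DESeq2, without each library, per 10000 UMIs, with no low-count filter, with stricter cell filters and with an antibody ratio above 3. Among cells without a cycle UMI 16 kept both, 6 lost the call and the others were not tested. Aunip lost its call after thinning and Ccl1 at Il7r of at least 5. With the library block, which pairs cells of the same library, left out, 825 genes were higher and 802 lower, S100a9 lost its call, and the CD8 minus CD4 test gave 2 higher and 0 lower. Counts of higher and lower genes were 546 and 577 with DESeq2, 420 and 363 after thinning, 459 and 517 at Il7r of at least 5, 1730 and 1867 at Il7r of at least 3 per 10000 UMIs, 95 and 97 without cycle UMIs, and 624 and 571 at an antibody ratio above 3. Without single libraries they ran from 638 to 1003 and from 667 to 1030. The CD8 minus CD4 counts were 34 and 22 with DESeq2, 29 and 39 in the depth window, and 34 to 98 and 16 to 53 without single libraries; Xcl1 ran from -1.18, without the CD226-knockout library, to 5.22 and Igkc to 2.09 in the window. The causes were not tested.

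List medians without single libraries ran from 0.17 to 0.23 for the IL-7 receptor list and from 0.16 to 0.21 for quiescence factors. After thinning they were 0.22, 0.22 and 0.56 for IL-7 receptor, quiescence and interferon genes, and quiescence was 0.29 in the depth window. Without cycle UMIs they were 0.098 (IL-7 receptor), 0.21 (quiescence), -0.13 (cell cycle), -1.13 (inhibitory) and -0.35 (interferon, reversed). There, Slamf6 (-1.10), Tcf7 (-1.36), Id3 (-1.51), Gpr183 (-0.55), Ltb (-0.0073), Ifi27l2a (-1.07) and Akt1 (0.15) reversed. Csf2 ran from -0.10, without the wild-type library, to 1.27 without single libraries, and reversed in the window (-0.80) and per 10000 UMIs (-0.22), Cenpf after thinning (-0.053) and per 10000 UMIs (-0.19), Gzma at Il7r of at least 5 (-0.23) and per 10000 UMIs (-0.21), Ifi27l2a at Il7r of at least 5 (-0.0089) and Trdc per 10000 UMIs (1.33).

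Shares of Il7r-high cells, in the order of the libraries above, were 1.79%, 3.55%, 1.76% and 2.13% at Il7r of at least 5 and 10.4%, 15.6%, 11.6% and 13.8% after thinning. Per 10000 UMIs they were 12.9% (CD226 knockout), 7.80% (TIGIT knockout) and 9.70% (double knockout). The CD226 ratio with TIGIT present was 1.98 at Il7r of at least 5, and 1.22 with TIGIT absent. The TIGIT ratio with CD226 present turned to 1.04 per 10000 UMIs and 1.11 after thinning, and with CD226 absent was 0.89 after thinning. Genes past 1.5-fold numbered 10 higher and 9 lower for CD226 and 6 and 5 for TIGIT after thinning; the depth window gave 3 higher for CD226 and 4 lower for TIGIT. Log2 ratios reversed for Rnpep (0.097) and Btbd1 (0.42) after thinning, and for AY036118 (-0.089) and Rnf19b (-0.023) in the window.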

Other observations

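Il17a was read in 1 member cell, of the TIGIT-knockout library, which held all 71 of its UMIs in members. The other 3 libraries had 0.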
